A study of Mus musculus with 12 samples.

Results

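Loss of Blimp-1 was followed at its early time point, day 3 (D3) of culture, in 6 of the study's 12 arrays: 3 of wild type and 3 of Blimp-1 cKO mammary epithelial cell (MEC) 3D cultures. The comparison took the probes that passed the detection test (p under 0.05 against negative control beads) on 3 or more of these 6 arrays, which kept 18642 of 45281 probes and 10158 named genes. Wild type MECs came from C57BL/6 females of 8 to 10 weeks, and Blimp-1 cKO MECs from Prdm1 BEH/CA;ROSA26:CreERT2 females, which carry a conditional Prdm1 allele (CA) beside the BEH allele and a tamoxifen-activated Cre expressed from the ubiquitously active ROSA26 locus. All donors were pregnant, and the cells were grown in Matrigel, where they form hollow acini. Both genotypes received 100 nM 4-hydroxytamoxifen (4-OHT) for 24 h from the start of culture. No source describes Cre in the wild type mice, so loss of Blimp-1, active Cre and donor line cannot be told apart. RNA of each genotype came from independent cultures, and no label says whether the 3 arrays of a group stand for separate animals. The p-values therefore measure only the spread between arrays. That spread was pooled over all 12 arrays, 6 of which were taken at day 4 (D4). Whether D3 and D4 arrays share cultures is not stated.

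Blimp-1, encoded by Prdm1, is a zinc finger repressor that is best known for driving plasma cell differentiation and that also acts in epithelia. Interferons signal through JAK kinases to STAT and IRF factors, which bind interferon-stimulated response elements (ISREs) in the promoters of antiviral genes. Blimp-1 recognises a GAAA-rich sequence that resembles the ISRE. The products of those antiviral genes sense viral RNA, block its translation, conjugate the ubiquitin-like protein ISG15, load MHC class I and recruit lymphocytes through chemokines.

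The arrays were of like quality. Between 18094 and 18780 probes were detected per array, and the median deposited signal was 207 to 230 across wild type arrays and 199, 271 and 250 on cKO replicates 1, 2 and 3. Within a genotype, the log2 signals of the tested probes correlated at 0.986 to 0.993. The number of arrays limits the precision. Signals below are background-corrected, normalized signals on a linear scale, with wild type replicates 1, 2 and 3 and then cKO replicates 1, 2 and 3 given in that order, and a fold change is cKO over wild type on the log2 scale with its standard error (SE). Keratins Krt8 and Krt14 were bright in both genotypes, and Epcam, a general epithelial marker, was detected on all 6 arrays at 195 to 377. The luminal keratin Krt8 read 26023, 28645 and 27818 in wild type cultures and 29146, 28645 and 27943 in cKO, and Krt14, a basal keratin, 26394, 26281 and 27244 against 26023, 18219 and 24201.

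Prdm1 itself was too dim to check the genotype labels. Of its 2 probes, the brighter gave 65.7, 46.5 and 42.3 in wild type cultures and 59.6, 90.3 and 73.1 in cKO, and it was detected on 1 cKO array and on no wild type array. The other probe was detected on none of the 6. Where these probes lie relative to the deleted part of the gene is not stated.

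By limma with Benjamini-Hochberg adjustment over all tested probes, with calls made at an adjusted p up to 0.05 and a change of 1.5-fold or more, 208 genes were higher in the cKO cultures (2.05% of the genes tested) and 62 were lower (0.610%). On all 270, the cKO arrays lay entirely beyond the wild type arrays, as they did for 971 genes tested on the high side and 1069 on the low side. The median fold change over all genes was -0.02 and the median absolute fold change 0.12. Genes detected on all 6 arrays were called at a like rate, 153 higher (1.67%) and 50 lower (0.545%) of 9182. Of the genes tested, 55 were detected on all 3 cKO arrays and on no wild type array, and 33 of them were called higher. The reverse held for 22 genes, of which 8 were called lower. At the rule's edge, probes detected on exactly 3 arrays (772) had a median signal of 75.1 and those detected on exactly 2, which were left out (953), 67.5.

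**Figure D1:**
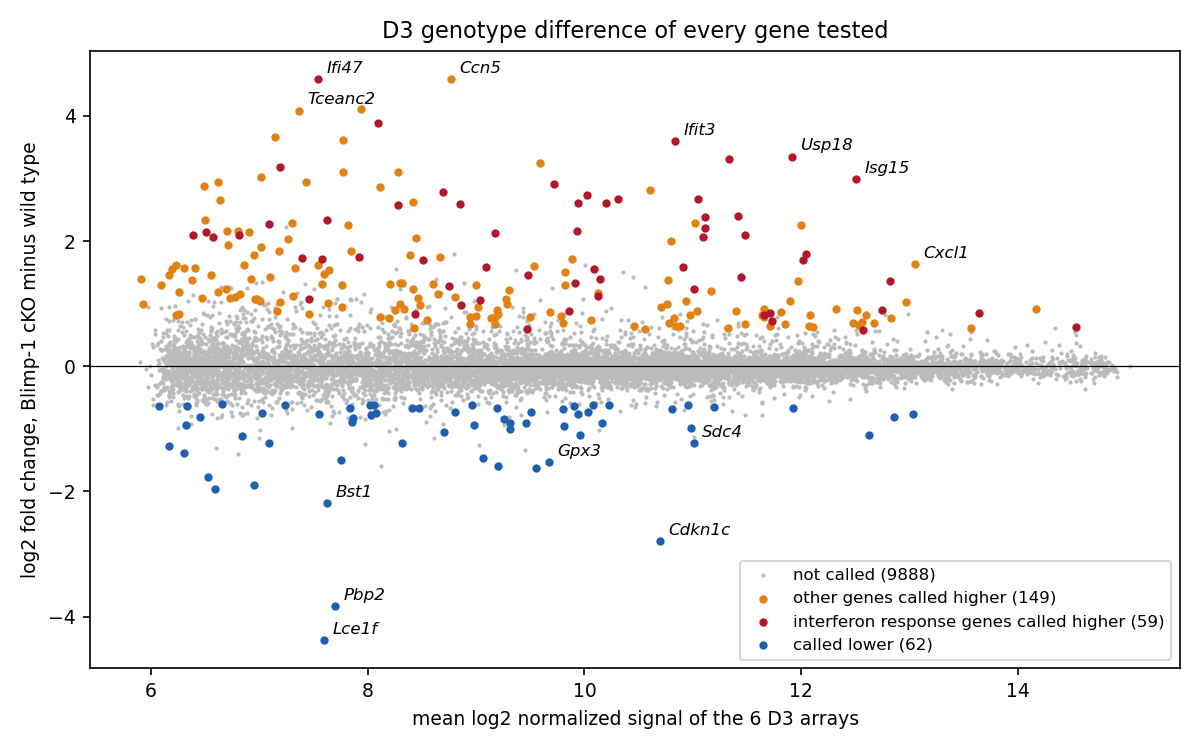
Log2 fold change (Blimp-1 cKO minus wild type) of each of 10158 genes at D3 against its mean log2 normalized signal on the 6 arrays. Red points are the 59 called genes of the interferon response lists, orange points the 149 other genes called higher and blue points the 62 called lower. Red points are found from dim to bright signals.

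Interferon response genes were the main listed group among the increases. Of 93 tested genes in 8 lists (IRF and STAT factors, nucleic acid sensors, the OAS family, the IFIT and IFITM families, the ISG15 cycle, interferon-inducible GTPases, the PARP, TRIM and SP100 family, and other interferon-stimulated genes), 59 (63.4%) were higher and 0 were lower, with a median fold change of 1.07 against -0.02 for all genes. They made up 59 of the 208 genes called higher. Of all genes tested, 2.05% were higher. Some listed genes passed the detection test through their cKO arrays alone, so the share of 63.4% includes genes admitted by a high cKO signal. Those detected on no wild type array were 2 genes of the OAS list, 1 of the IFIT and IFITM list, 2 GTPase genes and 1 of the PARP, TRIM and SP100 list. Listed genes detected on 1 or 2 wild type arrays also needed their cKO arrays to pass. Oas2, detected on 1 wild type array, is an example, and such genes are not in this count.

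Promoters were searched because the members of these lists moved together, and those of 4 of their genes are shown here as examples. RefSeq windows (GRCm38.p6) run from 250 bases before to 50 bases after the transcription start, and capitals mark matches on either strand to the ISRE core GAAANNGAAA, overlapping matches merged.
Ifit3 promoter, chr19:34583279-34583578, plus strand: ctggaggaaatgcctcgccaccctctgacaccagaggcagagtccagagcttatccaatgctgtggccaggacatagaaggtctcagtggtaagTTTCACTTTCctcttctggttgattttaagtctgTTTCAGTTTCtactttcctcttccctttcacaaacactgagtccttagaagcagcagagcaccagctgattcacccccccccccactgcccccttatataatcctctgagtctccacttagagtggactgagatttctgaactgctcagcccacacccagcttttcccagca
Isg15 promoter, chr4:156200769-156201068, minus strand: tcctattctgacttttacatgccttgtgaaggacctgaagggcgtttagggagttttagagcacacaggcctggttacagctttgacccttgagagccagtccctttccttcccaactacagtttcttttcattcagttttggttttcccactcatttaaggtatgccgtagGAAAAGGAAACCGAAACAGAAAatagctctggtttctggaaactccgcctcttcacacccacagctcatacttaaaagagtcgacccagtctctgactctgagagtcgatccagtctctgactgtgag
Rsad2 promoter, chr12:26456403-26456702, minus strand: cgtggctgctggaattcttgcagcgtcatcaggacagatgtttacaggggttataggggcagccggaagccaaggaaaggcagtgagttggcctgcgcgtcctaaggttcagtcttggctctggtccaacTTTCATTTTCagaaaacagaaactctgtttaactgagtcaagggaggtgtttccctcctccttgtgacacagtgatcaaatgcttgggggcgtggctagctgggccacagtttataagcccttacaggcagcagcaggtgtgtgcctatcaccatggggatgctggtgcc
Irgm1 promoter, chr11:48871371-48871670, minus strand: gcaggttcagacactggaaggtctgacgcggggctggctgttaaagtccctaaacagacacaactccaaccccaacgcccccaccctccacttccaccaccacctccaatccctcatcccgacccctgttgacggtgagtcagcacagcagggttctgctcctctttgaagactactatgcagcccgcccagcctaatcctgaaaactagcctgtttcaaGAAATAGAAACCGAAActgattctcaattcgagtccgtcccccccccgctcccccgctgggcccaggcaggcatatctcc
Ifit3 held 2 matches, Isg15 an overlapping run of 3, Rsad2 1 and Irgm1 an overlapping pair. All 4 examples thus hold a match, whereas only 21 of the 48 interferon response genes called higher that have a window do. The windows of Irf7, Ifi47, Oasl1 and Pml, for example, held none. The core was found in 3.44% of all 32851 promoter windows. Counted by gene, it was in 43.8% of the 48 interferon response genes called higher that have a window, in 10.5% of the 114 other genes called higher, in 4.26% of the 47 genes called lower and in 3.62% of the 8223 tested genes. It was also in 33.3% of the 30 interferon response genes that were tested and not called. The heptamer GTGAAAG, part of the sequence Blimp-1 prefers, was in 8.33%, 7.02% and 2.13% of the same 3 called groups, in 3.99% of tested genes and in 3.33% of the interferon response genes that were not called. TTCNNNGAA, the element bound by STAT dimers, was in 18.8%, 8.77%, 6.38% and 8.18%, and in 23.3% of the interferon response genes that were not called, a share above that of the called ones. A match is a description of the letters and not a binding site.

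The OAS family makes 2′-5′ oligoadenylates that activate RNase L. Of 7 tested members, 6 were higher (85.7%), against 2.05% of all genes tested. Oas2 read 65.1, 83.0 and 67.0 in wild type, where 1 array detected it, and 770, 2199 and 685 in cKO (3.88, SE 0.35, adjusted p = 6.04e-05 in limma's test). Oasl1 read 269, 345 and 313 against 1798, 3309 and 2109 (2.92, adjusted p = 1.17e-05, limma). Both genes were brighter on cKO replicate 2 than on the other cKO arrays, without overlap between genotypes. Oas1a and Oas1b were detected on no wild type array and were at least 2.29-fold and 2.57-fold higher, against the lowest signal of any detected probe on each array. Oas1a, Oas1b and Oas1g are near copies, and their probes may share signal.

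IFIT proteins bind viral RNA ends, and viperin, the product of Rsad2, makes a chain-terminating nucleotide. Of 8 tested members of this list 6 were higher (75%), against 2.05% of all genes tested. Ifit3 gave 534, 507 and 534 in wild type cultures and 4717, 11408 and 4737 in cKO (3.59, SE 0.29, adjusted p = 2.68e-05, limma). Rsad2 rose from 851, 768 and 841 to 7009, 11533 and 6687 (3.31, SE 0.19, adjusted p = 3.01e-06, limma). The lowest cKO array was several times the highest wild type array for both. Bst2, which encodes tetherin, was higher by 1.42 and the bright membrane protein gene Ifitm1 by 0.63, with 21569, 16785 and 19072 against 28242, 28380 and 32158. Ifitm1 fell under 1.5-fold without wild type replicate 2 or cKO replicate 3 (adjusted p = 0.0383 and 0.0341, limma). Ifit1bl1 was detected on cKO arrays alone and was at least 5.80-fold higher.

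ISG15 is attached to proteins by an enzyme cascade that includes Ube2l6, and Usp18 removes it and also dampens receptor signalling. Isg15 gave 2628, 1633 and 2034 in wild type cultures and 15293, 23475 and 12294 in cKO (2.99, SE 0.22, adjusted p = 2.00e-05, limma). Usp18 gave 1169, 1197 and 1251 against 10491, 19885 and 8914 (3.35, SE 0.23, adjusted p = 1.04e-05, limma). On every cKO array both genes were well above the wild type range. Ube2l6 (1.46) and Trim25 (0.59), an ISG15 ligase, were also higher. Thus 4 of 6 tested members of the cycle (66.7%) were called higher, against 2.05% of all genes tested. Trim25 fell under the 1.5-fold minimum without wild type replicate 3 or cKO replicate 2 (adjusted p = 0.0455 and 0.0326, limma).

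Of 17 interferon-inducible GTPase genes with a probe, 9 passed the detection test and all 9 were higher, against 2.05% of all genes tested. Of these 9, 2 passed the detection test through their cKO arrays alone. Interferon-inducible GTPases attack the vacuoles of intracellular pathogens, and the Mx proteins trap viral nucleocapsids. Ifi47 gave 35.5, 41.1 and 37.3 in wild type, where no array detected it, and 781, 1427 and 689 in cKO, at least 12.1-fold higher (adjusted p = 5.85e-07, limma). Gbp3 gave 730, 927 and 872 against 4424, 8899 and 3865 (2.67). Igtp (2.39), Irgm2 (2.39) and Mx2 (2.79) had fold changes of like size, and Mx1, detected on cKO arrays alone, was at least 2.53-fold higher.

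Among the factors that carry the signal, 3 of 10 were higher (30%), against 2.05% of all genes tested. Irf7, the inducible interferon regulatory factor, gave 208, 182 and 177 in wild type cultures and 796, 2002 and 929 in cKO (2.59, SE 0.29, adjusted p = 0.000327, limma). Stat2 gave 309, 346 and 294 against 781, 1369 and 800 (1.59), and its partner Irf9 2993, 2166 and 2376 against 4375, 4780 and 4350 (0.85). Irf9 was nearly level across the cKO arrays, with a range of 0.14 on the log2 scale against 1.33 for Irf7. Irf1 (-0.06), Irf2 (0.15) and Irf3 (-0.03) did not pass the test.

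Upstream, calls were made among the nucleic acid sensors and not among the few tested interferon, receptor and kinase genes. Of 8 tested interferon receptor and JAK kinase genes, 0 passed, with adjusted p-values of at least 0.193 in limma's test. At the overall shares of 2.05% higher and 0.610% lower, a list of this size would often hold no call. Ifnlr1, a subunit of the type III interferon receptor, gave 2259, 2397 and 2123 against 1963, 2059 and 1870 (-0.20, adjusted p = 0.397, limma). Of 10 interferon genes with a probe only Ifna1 was tested (-0.27, adjusted p = 0.581, limma), and Ifnb1 was detected on 1 cKO array and no wild type array. Ifna1 belongs to a family of near copies. Among nucleic acid sensors and adaptors 4 of 15 (26.7%) were higher, against 2.05% of all genes tested. Ddx58, which encodes the RNA sensor RIG-I, gave 716, 822 and 731 in wild type cultures and 1392, 2369 and 1354 in cKO (1.13, SE 0.19, adjusted p = 0.00534, limma). The others were Dhx58, which encodes the related helicase LGP2 (378, 389 and 428 against 2029, 3468 and 2022), Znfx1 (1.40) and the RNA editing enzyme gene Adar (0.88).

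Antigen presentation moved in part. Of 12 tested genes of MHC class I peptide supply, 5 were higher (41.7%, against 2.05% of all genes tested), with a list median of 0.32. The peptide transporter gene Tap1 gave 215, 254 and 200 in wild type cultures and 595, 1095 and 626 in cKO (1.74, SE 0.24, adjusted p = 0.00155, limma). Tap2 (1.05), the class I transactivator gene Nlrc5 (1.62) and the immunoproteasome subunits Psmb9 (1.16) and Psmb8 (0.77) were the others, while Psmb10 gave 0.36 (adjusted p = 0.320, limma) with overlapping groups. Without wild type replicate 2 Tap2 missed the threshold (adjusted p = 0.0506, limma), without wild type replicate 3 Nlrc5 did (0.0523), and Psmb8 did without wild type replicate 2 or 3 or cKO replicate 1 or 2 (0.0688 to 0.107). None of 11 constitutive proteasome genes passed (list median 0.01). Of 8 tested class I heavy chain and B2m genes, H2-T10 (0.95) and H2-Q6 (0.76) were higher (25%, against 2.05% of all genes tested). H2-T10 and H2-Q6 probes may share signal with other class I loci. Other tested probes of H2-T10 gave 0.46 and 0.42 and did not pass. H2-Q6 was called only with all arrays or without wild type replicate 3, and its adjusted p was 0.0543 to 0.199 when any other array was left out. None of 4 class II genes passed.

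Chemokine genes were higher in 5 of 12 cases (41.7%), against 2.05% of all genes tested, and did not all follow the same arrays. Cxcl10, a ligand of the receptor CXCR3 of T cells, gave 243, 255 and 253 in wild type cultures and 1796, 3359 and 2233 in cKO (3.25, SE 0.25, adjusted p = 2.32e-05, limma). Cxcl9, which binds the same receptor, gave 32.0, 43.6 and 44.8 against 94.6, 580 and 291, and was at least 3.33-fold higher. Cxcl9 had the widest spread of the named genes over the cKO arrays, 2.62 on the log2 scale, and its adjusted p of 0.0179 in limma's test rose to between 0.0568 and 0.0677 when any array but cKO replicate 1 was left out. Ccl5 was higher by 3.10 (70.8, 105 and 162 against 626, 1224 and 990). The neutrophil attractant gene Cxcl1 gave 6960, 3767 and 4187 against 12857, 14890 and 17307 (1.64), with cKO replicate 3 highest. Ccl2 (0.83) passed narrowly (adjusted p = 0.0460, limma), and so did the cytokine gene Csf2 (adjusted p = 0.0380), which gave 182, 38.8 and 51.8 against 575, 285 and 260, with cKO replicate 1 highest. The Ccl2 call was lost when any of the 6 arrays was left out (adjusted p = 0.0616 to 0.161, limma) and the Csf2 call when any but wild type replicate 1 was (0.0543 to 0.169).

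**Figure D2:**
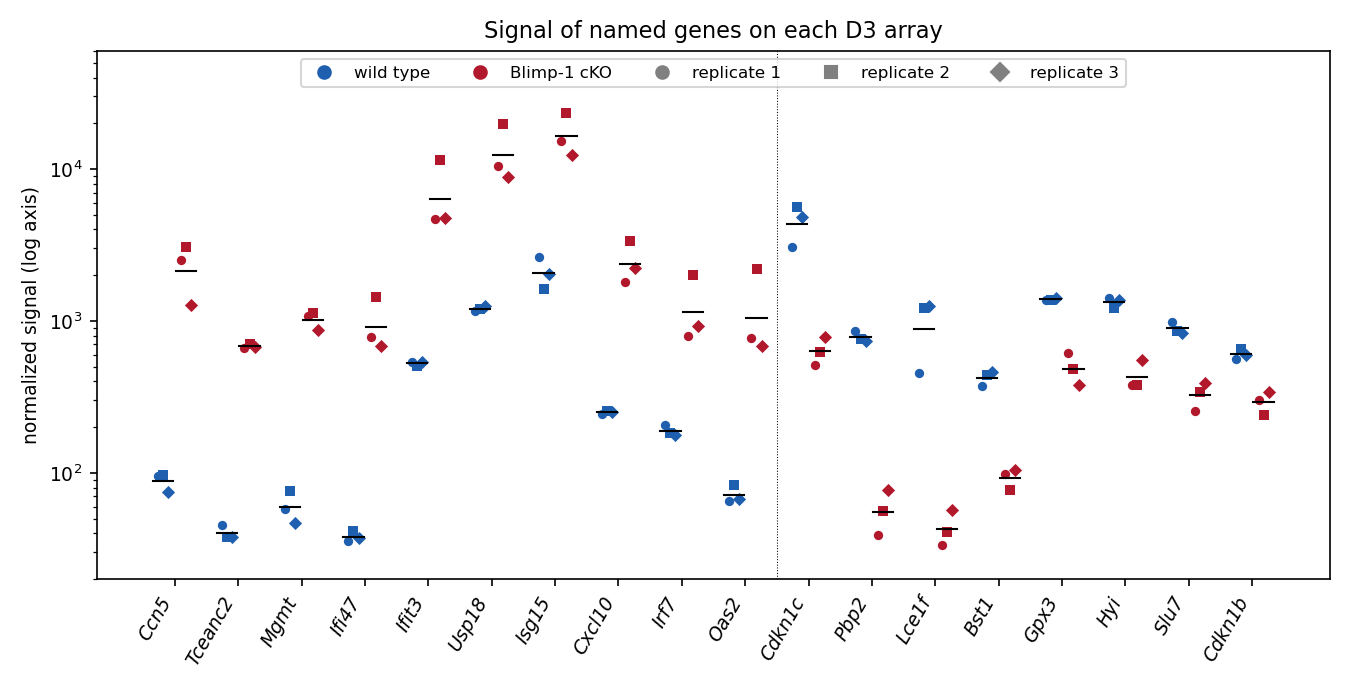
Normalized signal (log axis) of 18 named genes on each D3 array, wild type in blue and Blimp-1 cKO in red. Circles, squares and diamonds are replicates 1, 2 and 3, and bars are geometric means of 3 arrays. Genes left of the dotted line were called higher and those right of it lower, and the cKO square (replicate 2) is the highest cKO point for each gene drawn from Ifi47 to Oas2. Replicate 2 was also the highest cKO array for Ccn5, Tceanc2 and Mgmt, which are not interferon response genes.

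The cKO arrays did not spread evenly over these groups. Over all tested probes, the median SD was 0.162 on the log2 scale among cKO arrays and 0.139 among wild type arrays. Relative to the wild type mean, the 59 called interferon response genes had medians of 1.55, 2.45 and 1.64 on cKO replicates 1, 2 and 3, and the 149 other genes called higher 1.15, 1.18 and 1.04. Over all 93 tested interferon response genes the medians were 0.96, 1.49 and 0.91. Replicate 2 was the highest cKO array for 58 of the 59 called interferon response genes, for 70 of the 149 other genes called higher and for 3651 of all 10158 genes tested. Its median distance above the other cKO arrays was 0.79 for the first set, 0.09 for the second, -0.03 for the genes called lower and 0.02 for all genes. The range over the cKO arrays was correspondingly wide in the interferon response genes, 0.85 in the median against 0.29 over their wild type arrays.

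The genotype difference of this group did not rest on that array. Without cKO replicate 2, 53 interferon response genes were called higher with a median of 0.91 over the 93 tested, and 108 other genes were higher. Without cKO replicate 1, 61 and 124 were called, and without replicate 3, 61 and 158. Replicate 2 also had the highest median deposited signal, 271, and its part in the result was not tested.

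**Figure D3:**
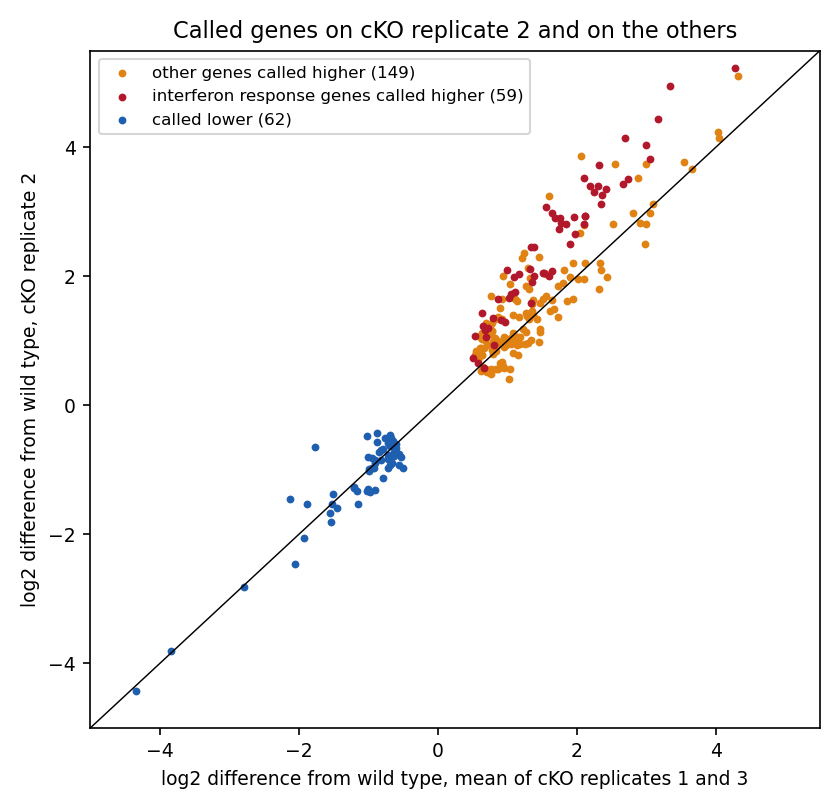
Log2 difference from the wild type mean on cKO replicate 2 (vertical axis) against the mean of cKO replicates 1 and 3 (horizontal axis) for the 270 called genes. The line marks equal values, and the red interferon response genes lie above it in 58 of 59 cases, whereas 90 of the 149 other genes called higher (orange) do.

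Outside the interferon response, single genes with no common list showed the steepest changes, and several were even across the cKO arrays. Ccn5, which encodes a secreted matricellular protein, gave 95.9, 96.9 and 75.3 in wild type cultures and 2515, 3058 and 1263 in cKO (4.59, SE 0.36, adjusted p = 2.63e-05, limma). Tceanc2 was detected on no wild type array (45.3, 37.6 and 38.0) and read 659, 709 and 675 in cKO, at least 9.0-fold higher. Mgmt, the gene of a DNA repair enzyme that removes alkyl groups from guanine, gave 58.2, 76.5 and 46.9 against 1081, 1127 and 872, at least 13.5-fold higher, the widest bound on the high side. Tceanc2 had a range over the cKO arrays of 0.11 on the log2 scale, against 1.05 for Ifi47. Bbs4, a subunit of the complex that carries proteins to cilia, was higher by 3.11 and Tmem106b, a lysosomal membrane protein gene, by 3.62 (35.8, 132 and 51.7 against 634, 855 and 842). Klra16, of the Ly49 receptor family whose members are near copies, was at least 6.65-fold higher, and 2 other Klra16 probes were not detected on any cKO array. Nrg1, a ligand of the ERBB receptors, was detected on cKO arrays alone and was at least 1.53-fold higher (adjusted p = 0.0161, limma), a call lost without wild type replicate 2 or 3 (0.0707 and 0.0640).

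The largest decreases were in single genes. Lce1f, of the late cornified envelope family, gave 452, 1224 and 1246 in wild type and was detected on no cKO array (33.5, 41.03 and 56.7), at least 11.8-fold lower (adjusted p = 3.11e-05, limma). Pbp2 fell from 858, 760 and 741 to 39.1, 56.2 and 76.7 (-3.83, SE 0.28, adjusted p = 1.98e-05, limma). Wild type replicate 1 was the low wild type array for Lce1f, whereas Pbp2 was level in wild type. Bst1, the gene of an NAD-consuming surface enzyme, gave 371, 439 and 460 against 97.7, 76.9 and 105 (-2.19). Gpx3, a secreted glutathione peroxidase, gave 1371, 1377 and 1425 against 611, 480 and 381 (-1.53). Involucrin (Ivl), another cornified envelope gene, was detected on wild type arrays alone (114, 103 and 120) and was at least 1.5-fold lower. The Ivl call was lost without wild type replicate 3 or cKO replicate 2 (adjusted p = 0.0700 and 0.0753, limma). The metabolic gene Hyi (-1.63) and the splicing factor gene Slu7 (-1.46) fell on the probes that stand for them, but their other tested probes gave 0.30 and -0.27 and did not pass. Syndecan 4 (Sdc4), a cell surface proteoglycan, gave 3415, 2850 and 3220 against 1856, 1294 and 1013 (-1.23, adjusted p = 0.0162, limma), a call lost without wild type replicate 1 or 3 or cKO replicate 2 or 3 (0.0559 to 0.0688).

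CDK inhibitors went both ways. These proteins hold cyclin-dependent kinases in check. Cdkn1c, which encodes p57, gave 3079, 5608 and 4850 in wild type cultures and 513, 622 and 786 in cKO (-2.79, SE 0.22, adjusted p = 2.42e-05, limma). Cdkn1b, which encodes p27, gave 557, 652 and 598 against 302, 242 and 339 (-1.04). Cdkn1a, which encodes p21, was higher instead, with 4627, 4211 and 3989 against 8552, 9512 and 6229 (0.90, adjusted p = 0.0139, limma), and its adjusted p was 0.0597 to 0.0721 without wild type replicate 2 or 3 or cKO replicate 1 or 2. Of 17 proliferation genes 0 passed and 3 had a positive fold change (median -0.15), with Ccna2 at -0.74 (adjusted p = 0.269, limma). Foxo3, a forkhead factor that controls Cdkn1b in other cells, was lower by 0.72 (575, 599 and 554 against 321, 430 and 307), a call lost when any array but cKO replicate 2 was left out (adjusted p = 0.0785 to 0.118, limma). Cdkn1c and Foxo3 are also the 2 called genes of the 16 tested in the glucocorticoid list.

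A part of the histone genes gave increases that as a group did not follow replicate 2. The histone genes were picked out after their values were seen, by RefSeq symbol. Of 48 tested genes of the H1, H2A, H2B, H3 and H4 families, 9 were higher and 0 lower. Of all genes tested, 2.05% were called higher and 0.610% lower. Among the 48, 30 had a positive fold change and the median was 0.06, so the families as a whole were nearly level. The called genes were linker histone H1f2, 5 H2B genes and 3 H4 genes, and no tested H2A or H3 gene was called. H1f2 gave 4345, 4873 and 4823 in wild type cultures and 8843, 7349 and 8588 in cKO (0.82, adjusted p = 0.00210, limma). H2bc7 gave 3279, 3462 and 3584 against 5432, 5108 and 5676 (0.65), and H4c18 465, 408 and 449 against 794, 786 and 787 (0.84). On H1f2 and H2bc7 replicate 2 was the lowest cKO array. Histone genes are near copies and most of their transcripts lack a poly(A) tail, so the level of any single gene is uncertain.

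**Figure D4:**
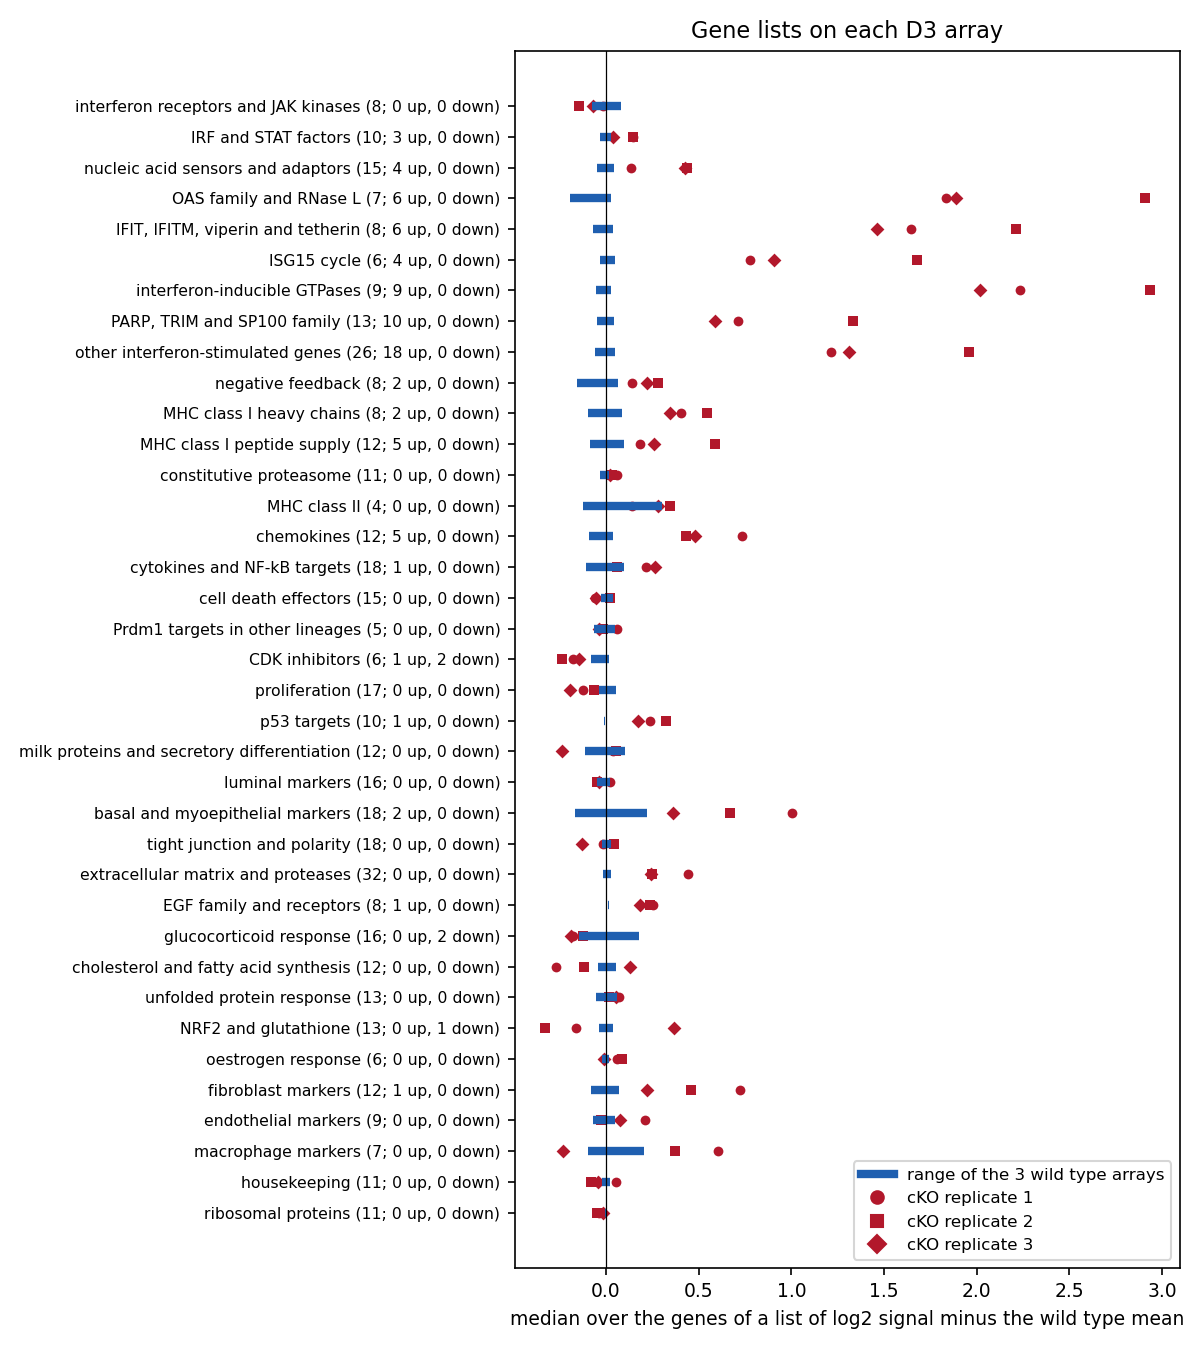
Median over the tested genes of each list of the log2 signal minus the D3 wild type mean, for each cKO array (red circle, square and diamond for replicates 1, 2 and 3) and as the range of the wild type arrays (blue bar). Labels give the genes tested and the numbers called higher and lower, lists with at least 4 tested genes are drawn, and replicate 2 lies furthest right for the antiviral effector lists while replicate 1 does for the basal and fibroblast lists.

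Lists of the secretory epithelium gave no call. Of 12 tested milk protein and secretory genes 0 passed (median -0.05), of 16 luminal markers 0 (median -0.08) and of 18 tight junction and polarity genes 0 (median -0.03). Casein gene Csn1s1 varied widely within each genotype, from 1958 to 6510 in wild type and from 2132 to 7408 in cKO. Lists of cell death effectors (15 tested), cholesterol and fatty acid synthesis (12), the unfolded protein response (13), housekeeping genes (11) and ribosomal proteins (11) also held 0 called genes, with medians between -0.12 and 0.06. With 2.05% of all genes tested called higher and 0.610% lower, lists of these sizes would often hold no call. A p that misses the threshold does not show that the genotypes were alike.

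Basal and mesenchymal markers leaned upward with few calls. Of 18 basal and myoepithelial markers 15 were positive (median 0.70, lowest -0.43), and the median of all genes tested was -0.02. Of the 18, 2 passed, against 2.05% of all genes called higher. These were smooth muscle actin gene Actg2 (1845, 935 and 739 against 3642, 2877 and 2152, adjusted p = 0.0482, limma) and P-cadherin gene Cdh3 (266, 194 and 255 against 523, 527 and 317). Both calls were lost without wild type replicate 2 or 3 or cKO replicate 1 or 2 (adjusted p = 0.146 to 0.199 for Actg2 and 0.0809 to 0.149 for Cdh3, limma). Krt5 gave 1159, 414 and 427 against 3124, 1578 and 1187 (1.61, adjusted p = 0.200, limma). The basal keratin Krt14 went the other way. Its signals, given above, were lower on every cKO array than on any wild type array. Of 12 fibroblast markers all were positive (median 0.42), Pdpn passed (0.70, lost when any array but wild type replicate 1 was left out, adjusted p = 0.0595 to 0.149 in limma's test) and Fap was detected on 2 cKO arrays. Their summed signal was 12006 to 14991 in wild type and 17575 to 21758 in cKO, and that of the basal list 86008 to 95531 and 101051 to 125024. Of 32 matrix and protease genes 0 passed and 27 were positive (median 0.33). The basal and fibroblast lists were highest on cKO replicate 1, in contrast to the interferon response genes. Among the wild type arrays, replicate 1 was likewise the highest for both lists. In such bulk RNA more cells of a type and more RNA per cell cannot be told apart, and the part of these cells in the genotype difference was not tested.

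Lymphocyte markers were near background, and macrophage markers were detected in part. None of 10 lymphocyte markers with a probe, among them Ptprc, Cd3e and Ms4a1, could be tested, and only Klrb1c was detected, on 2 cKO arrays. Of 7 tested macrophage markers 0 passed, with Fcer1g at 280 to 832 and C1qc at 332 to 847 on the 6 arrays, and their summed signal overlapped, 3608 to 4386 in wild type and 2780 to 5446 in cKO, while Ptprc, Adgre1 and Itgam were detected on none of the 6 arrays. Of 9 endothelial markers 0 passed, with summed signals of 3530 to 3754 and 3702 to 4083.

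Some called genes lay near each other on a chromosome. Among 41 consecutive tested genes around Cdkn1b on chromosome 6, 9 were called against 270 of all 10158. Klra4, Gm5886 and Hebp1 were higher and Smim10l1, Gpr19, Cdkn1b, Lockd, Pbp2 and Atf7ip lower. Hebp1, which encodes a heme-binding protein, gave 497, 545 and 566 in wild type cultures and 1433, 1617 and 1533 in cKO (1.51). Atf7ip, a partner of a histone methyltransferase, gave 2943, 2963 and 2648 against 1368, 1443 and 1515 (-0.98). The median absolute fold change of the 41 genes was 0.32 against 0.12 for all genes. The 41 genes around H2bc9 on chromosome 13 also held 9, all higher, 8 of them histone genes and the other Hfe, a regulator of iron uptake. Around Fuom on chromosome 7, 7 of 41 were called: Mgmt, Zfp511, Fuom, Paox, Ifitm1 and Irf7 higher and 9430038I01Rik lower. Of these, Ifitm1 and Irf7 are interferon response genes. Zfp511 gave 904, 927 and 839 against 3557, 3461 and 3639 (2.00), with nearly level cKO arrays. Around Gal3st1 on chromosome 11, 6 of 39 were called, all higher. Also on chromosome 11, around Irgm1, 7 of 41 were called: the interferon-inducible GTPase genes Irgm1 and Ifi47, Thg1l and Tbc1d9b higher, and Pttg1, Slu7 and Flt4 lower.

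Called genes were also counted around the altered loci, beside 270 called of all 10158 genes tested. Of the 40 tested genes nearest Prdm1 on chromosome 10, 2 were called. They were Foxo3, the 15th tested gene from it, and Armc2, the 17th, on the same side. Of the 40 nearest the ROSA26 locus, which is on chromosome 6 like the Cdkn1b run, 0 were called, and the nearest called genes, Aldh1l1 and Usp18, were the 38th and 64th tested genes on either side. The windows were chosen after the values were seen and carry no test, and the part of the donor line in them was not tested.

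**Figure D5:**
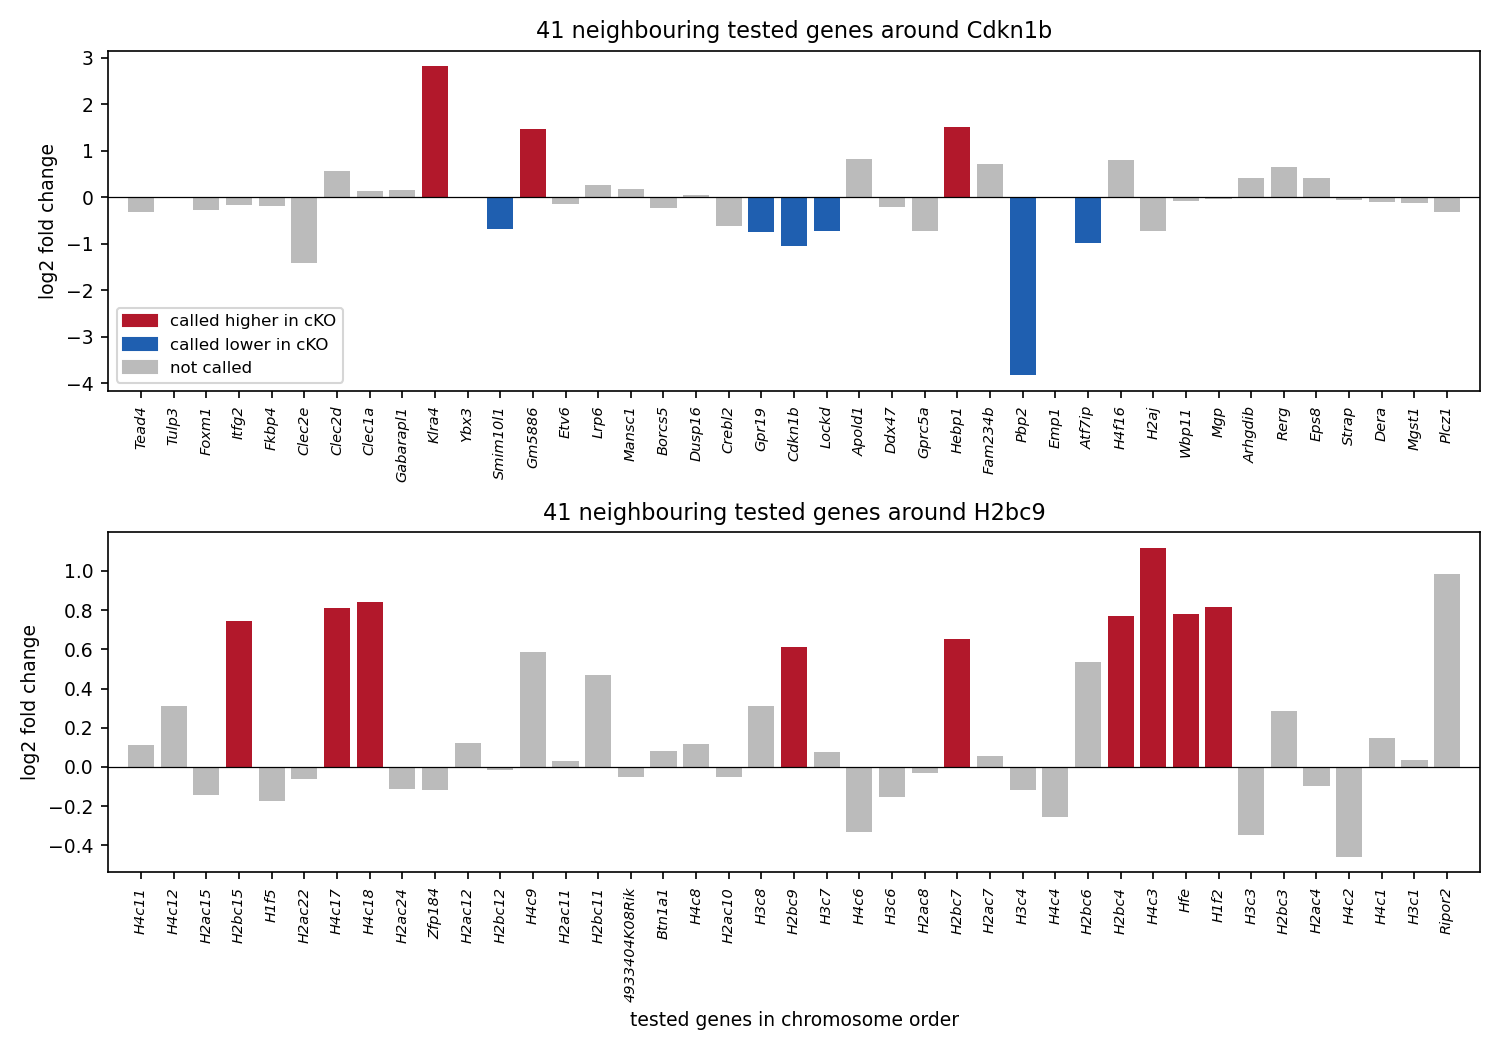
Log2 fold change at D3 of consecutive tested genes in chromosome order, 41 around Cdkn1b (upper panel) and 41 around H2bc9 (lower panel). Red bars were called higher, blue bars lower and grey bars not called, with 9 called genes in each panel, of both directions in the upper and all higher in the lower.

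Most D3 calls kept their direction on the 6 other arrays, which were taken at D4. Of the 208 genes called higher, 206 had a positive fold change at D4, and of the 62 called lower, 59 had a negative one. Over all genes tested, the median fold change at D4 was -0.02. Past the same thresholds in the same direction at D4 were 46 of the 59 interferon response genes, 115 of the 149 others and 44 of the 62 called lower. The same count over all 10158 genes tested was 398. The median fold change of the interferon response genes was 1.79 at D3 and 1.31 at D4, and that of the other genes called higher 1.11 and 1.02. Since the genes were chosen on the D3 arrays, a larger size at D3 is in part given by the choice. Usp18 gave 3.35 at D3 and 1.76 at D4, Isg15 2.99 and 1.56, and Cxcl10 3.25 and 3.43. Tested directly with limma, the genotype difference changed between the days for 0 genes at an adjusted p of 0.05 and for 765 of 10158 at an unadjusted p of 0.05, with Ifi27 lowest (adjusted p = 0.115). The other fits that changed this count, with no background correction and with trend and robust options, each gave 3 genes.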

How the data were processed

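MEC RNA was hybridised to Illumina Mouse WG-6 v2 arrays, 3 per genotype and day. Probe summaries came from GenomeStudio, and the main values were the raw intensity values the authors deposited. The detection p-values deposited with them compare a probe with negative control beads. A linear, rank-invariant and background-subtracted version of the intensity values, made by the authors, served as an alternative. No column of sample values was left unmatched (0).

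Signals of all 12 arrays were background-corrected through the detection p-values (offset 16) and quantile-normalized to the log2 scale by the neqc function (limma 3.58.1, R 4.3.3). Probes were tested where the detection p was under 0.05 on at least 3 of the 6 D3 arrays. The linear model held 4 group means, with moderated variances, and p-values were adjusted over all 18642 tested probes by Benjamini-Hochberg. Of all probes, 34885 had 1 gene symbol, 18 several and 10378 none in the platform annotation, updated through RefSeq gene IDs, and 11 were named through the study's probe table. For a gene with several tested probes, the values are those of the probe with the highest D3 mean. Where no array of a group detected a probe, the fold is a bound against the lowest normalized signal of a detected probe on each array (72.4 to 79.0) or the probe's own, whichever was higher. The script was tested on simulated data.

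Members and all 40 gene lists were chosen with earlier results of these data known. Lists are described by counts and medians and were not tested. Named genes were Prdm1, the genes the paper names, the 15 largest increases and 15 largest decreases, list members (all that were called, or the 6 largest), the 5 widest over cKO arrays, the 5 largest bounds each way, and neighbours. The histone genes, the genes of chromosome runs, Krt5, Krt8, Krt14, Epcam, Hfe and Ifi27 were named after their values were seen. Alternatives changed the background correction, scaling, filter, arrays fitted, replicate block, variance moderation, probe rule, fold minimum and test, or left out an array. The methods' general statistics name an unpaired t-test, and the arrays were tested by the authors with an Illumina error model.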

Additional observations from a re-analysis of the deposited data

How the results depend on the processing

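Against 208 higher and 62 lower genes, the alternatives kept the counts within 1.5 times except where given here. Without background correction 38 genes were lower. The methods' t-test on the same values gave 318 higher and 113 lower genes unadjusted, and 4 and 0 after Benjamini-Hochberg, where limma gave 208 and 62. Leaving out an array gave 153 to 219 higher and 37 to 60 lower genes, with 39 lower genes without wild type replicate 2 and 37 without wild type replicate 3. Of the genes called, 95 higher and 23 lower were called in all 17 fits with limma. No called named gene changed sign in these fits, while the genes Csn1s1, Eng and Irf3, which were not called, took both signs. The median SD of the cKO arrays was 0.112 without background correction, 0.177 on the authors' processed values, 0.142 with no filter and 0.145 with the stricter filter. The count of genes whose genotype difference changed between the days rose from 0 to 3 without background correction and to 3 with trend and robust options. Dim probes limit the bounds, which rest on signals near 72.4 to 79.0.

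Among named genes, 1700030C10Rik, Actg2, Ccl2, Cdh3, Cdkn1a, Csf2, Cxcl9, Dgkk, Dstyk, Foxo3, H2-Q6, Ifitm1, Mtus2, Nrg1, Pdpn, Psmb8, Sdc4 and Trim25 lost the threshold in 4 or more of the 17 fits, and the cause was not tested. Same-numbered arrays of both genotypes deviated from their group means together only weakly (residual correlations 0.155, 0.0961 and 0.106 for numbers 1, 2 and 3), and each correlated best with its own number, a hint from the data and not the design. The labels do not say what a number marks at D3, so whether same-numbered samples share a batch is unknown, and the fit without a block was kept. With the replicate number as a block, 288 higher and 77 lower genes were called over all arrays, 167 and 43 over the D3 arrays alone, and 0 genes changed between the days.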
